A study of Tribolium castaneum with 6 samples.

Results

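The heat shock protein genes of the red flour beetle *Tribolium castaneum* were described in larvae with and without knockdown of *TcAMPKα*. They were taken as the genes listed as LOC662134 (heat shock protein 23), LOC662203 (heat shock protein 26), or under a symbol that begins with hsp or hsc and a digit. This gave 4 of 15099 genes. LOC662134 and LOC662203 are small heat shock proteins by name, and hsp68a and hsp68b are large ones. The names of both LOC genes come from the annotation supplied with the study. Other chaperone genes carry only LOC identifiers in the deposited values, and they were described separately through their RefSeq symbols.

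The study compared 3 dsEGFP libraries with 3 dsTcAMPKα libraries of the Georgia-1 strain. About 200 ng of double-stranded RNA against *TcAMPKα*, the catalytic subunit of the energy sensor AMP-activated protein kinase, or against *EGFP*, a jellyfish-derived reporter absent from beetles, was injected into larvae aged 20 days. A library was made from a pool of 10 unsexed larvae collected 6 days later, and no heat treatment is named for any group. The knockdown acted in whole larvae and left part of the target transcript, and in such pools fewer cells of a type and less RNA per cell cannot be told apart. Values are FPKM, fragments divided by the length of the transcript and the size of the library, added up over the transcripts of a gene. Estimated reads came to between 33518139 and 37584930 per library.

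Heat shock proteins are chaperones that bind unfolded proteins. The small ones hold unfolded proteins without using ATP, and members of the HSP70 family, to which Hsp68 of *Drosophila* belongs, fold them with ATP and the help of co-chaperones. Heat shock factor (Hsf) drives transcription of the inducible genes when cells are stressed, whereas the constitutive members (Hsc) are made in unstressed cells. In insects, several small heat shock protein genes also follow ecdysone and the moulting cycle.

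In the dsTcAMPKα group both small heat shock protein genes had lower mean levels and both hsp68 genes had higher ones, but only the fall of LOC662134 passed the test. A gene was called with a Benjamini-Hochberg adjusted p under 0.05 in limma, fitted to log2(FPKM + 1), and an absolute log2 fold change above 1. By this rule 1 of the 4 members was called, lower, and 0 were called higher. At an unadjusted limma p under 0.05, 1 member was higher and 2 were lower, and limma-voom on estimated reads also called 0 higher and 1 lower. Of all 10981 tested genes, 6.8% were called, 4.09% higher and 2.71% lower. At an unadjusted limma p under 0.05, 25.7% of them were higher and 10.8% lower. Among the same genes limma-voom called 167 higher and 455 lower. All 4 members passed the filter of a mean of at least 1 FPKM.

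The targeted gene, listed as Snf1a, was measured at 77.3, 74.9 and 56.9 FPKM in the dsEGFP replicates 1, 2 and 3. It was at 10.7, 7.32 and 16.3 FPKM in the dsTcAMPKα replicates, so that the groups were well apart. On the log2 scale this was a change of -2.56 ± 0.29 (SE), with an adjusted p of 0.0164 from limma. The libraries of a group were not equally alike. In dsEGFP replicate 3, 209 genes lay at least 3-fold above and 265 at least 3-fold below both other libraries of its group. In dsTcAMPKα replicate 3, 135 genes lay at least 3-fold above both others, and in the other 4 libraries the number was 15 to 28. In dsTcAMPKα replicate 1, 93 genes lay at least 3-fold below both others, and in the libraries other than it and dsEGFP replicate 3 the number was 13 to 20. The developmental gene Br-c, a broad-complex transcription factor of the pupal moult, was at 74.7, 32.8 and 12.7 FPKM in the dsEGFP replicates and at 27.8, 35.6 and 32.8 FPKM in the dsTcAMPKα replicates. The anti-metamorphic juvenile hormone response gene Kr-h1 was at 32.5, 29.1 and 41.6 FPKM in dsEGFP and at 71.5, 56.3 and 67.8 FPKM in dsTcAMPKα. Its log2 fold change was 0.91 (adjusted p = 0.0293 from limma), under the size required. The ecdysone receptor gene Ecr and the ecdysteroid enzyme genes Cyp18a1 and Cyp314a1 overlapped between the groups, with log2 fold changes of 0.18, -0.02 and -0.47 (adjusted p = 0.623, 0.944 and 0.428 from limma). The part of developmental timing in the results below was not tested.

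LOC662134, the gene named heat shock protein 23, was a low-level transcript. It was at 7.01, 4.76 and 5.76 FPKM in the dsEGFP replicates and at 2.20, 1.88 and 1.70 FPKM in the dsTcAMPKα replicates. All dsTcAMPKα libraries lay close together and below all dsEGFP libraries. The mean level was 5.84 ± 1.13 FPKM in dsEGFP and 1.93 ± 0.255 FPKM in dsTcAMPKα (SD, n = 3 each), 3.03-fold lower. The log2 fold change was -1.22 (95% confidence interval -1.68 to -0.75, adjusted p = 0.0232 from limma). The exact two-sided permutation test gave p = 0.1, the smallest value that 3 libraries against 3 allow. These levels rest on 109 to 152 estimated reads in the dsEGFP libraries and 34 to 49 in the dsTcAMPKα libraries. Among the tested genes of a library, ordered by FPKM, the median place of LOC662134 moved from the 27.5th percentile in dsEGFP to the 8.54th in dsTcAMPKα.

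LOC662203, the gene named heat shock protein 26, was the most abundant of the 4 members in the control group. It was at 30.6, 26.9 and 12.9 FPKM in the dsEGFP replicates and at 5.201, 13.2 and 9.27 FPKM in the dsTcAMPKα replicates. The groups touched, because dsTcAMPKα replicate 2 lay just above dsEGFP replicate 3. The mean level was 23.45 ± 9.34 FPKM against 9.24 ± 4.02 FPKM (SD, n = 3 each). The log2 fold change of -1.25 was about that of LOC662134, but its interval was wider (-2.25 to -0.25, adjusted p = 0.0823 from limma) and it was not called. Without dsEGFP replicate 3 it was -1.62 with an adjusted p of 0.0202 from limma, and passed. More genes passed over the whole set in that fit, with 686 of 10966 tested genes called higher and 513 lower. With all 6 libraries 449 were called higher and 298 lower.

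The hsp68a gene encodes a member of the HSP70 family by its symbol, and in *Drosophila* the Hsp68 gene is heat inducible. In the control larvae it was close to the lower end of the tested genes. It was at 1.26, 1.01 and 3.35 FPKM in the dsEGFP replicates and at 4.88, 3.39 and 24.5 FPKM in the dsTcAMPKα replicates. No library of one group reached into the other, but the gap between 3.35 and 3.39 FPKM was minute beside the range within dsTcAMPKα. The mean was 1.87 ± 1.28 FPKM in dsEGFP and 10.9 ± 11.8 FPKM in dsTcAMPKα (SD, n = 3 each). On the log2 scale hsp68a differed by 1.69 (95% confidence interval 0.04 to 3.33, adjusted p = 0.130 from limma), and the exact two-sided permutation p was 0.1.

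The hsp68b gene lies beside hsp68a and was at a similar level in each library. It was at 1.77, 1.76 and 6.19 FPKM in the dsEGFP replicates and at 5.91, 4.26 and 35.5 FPKM in the dsTcAMPKα replicates. The groups overlapped, since dsEGFP replicate 3 lay above dsTcAMPKα replicates 1 and 2. The mean was 3.24 ± 2.55 FPKM against 15.2 ± 17.6 FPKM (SD, n = 3 each). For hsp68b the log2 fold change was 1.53 (95% confidence interval -0.35 to 3.41, adjusted p = 0.205 from limma), and the exact two-sided permutation p was 0.3. The median percentile of hsp68b among the tested genes was 9.78 in dsEGFP and 24.6 in dsTcAMPKα, and that of hsp68a was 4.38 and 21.7.

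**Figure D1:**
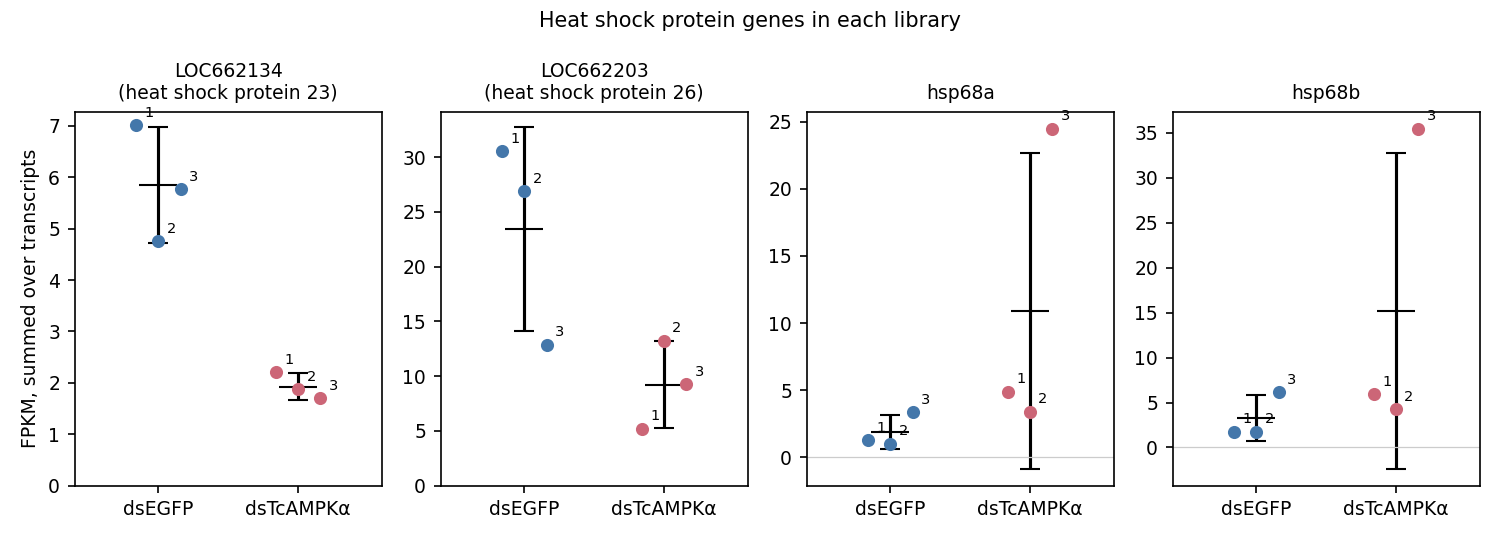
FPKM (vertical axis, a separate scale for each gene) of the 4 heat shock protein genes in the dsEGFP (blue) and dsTcAMPKα (red) libraries, numbered by replicate, with the mean and SD of 3 libraries in black. The dsTcAMPKα libraries of LOC662134 sit between 1.70 and 2.20 FPKM below all dsEGFP libraries, and replicate 3 of dsTcAMPKα stands far above the others for hsp68a (24.5 FPKM) and hsp68b (35.5 FPKM).

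Groups that did not overlap were found for 2 members, LOC662134 (lower) and hsp68a (higher). Among all tested genes the groups did not overlap in 44.8%, with dsTcAMPKα higher in 31.2% and lower in 13.6%.

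The higher mean levels of both hsp68 genes rested in large part on dsTcAMPKα replicate 3. There hsp68a was 5.02 times and hsp68b 6.01 times the higher of the other 2 dsTcAMPKα libraries. On the FPKM + 1 scale, 104 genes, hsp68a and hsp68b among them, had at least the same ratio as hsp68a in this library. For the ratio of hsp68b the number was 88, hsp68b itself included. Without it the log2 fold change fell to 0.91 for hsp68a (adjusted p = 0.209 from limma) and to 0.66 for hsp68b (adjusted p = 0.410 from limma). Replicate 3 was also the highest dsEGFP library for both genes. When both replicates 3 were left out, an alternative chosen after the values had been seen, all 4 members passed the thresholds, with 12.2% of all tested genes called, 6.91% higher and 5.25% lower. The log2 fold changes were then -1.16 for LOC662134, -1.66 for LOC662203, 1.25 for hsp68a and 1.12 for hsp68b (adjusted p = 0.0273, 0.0344, 0.0253 and 0.0261 from limma). These rest on 2 libraries in each group, chosen in part for their hsp68 levels.

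Added up by class, the small heat shock protein genes came to 37.6, 31.7 and 18.6 FPKM in the dsEGFP replicates and to 7.41, 15.1 and 11.0 FPKM in the dsTcAMPKα replicates. The large ones came to 3.04, 2.77 and 9.53 FPKM in dsEGFP and to 10.8, 7.64 and 60.001 FPKM in dsTcAMPKα. The small class was thus higher in every dsEGFP library than in any dsTcAMPKα library, whereas the large class overlapped. The mean sums were 29.3 ± 9.69 against 11.2 ± 3.86 FPKM for the small class (SD, n = 3 each; log2 ratio -1.39) and 5.11 ± 3.83 against 26.1 ± 29.4 FPKM for the large class (log2 ratio 2.35). Of the summed FPKM of all 4 members, hsp68a and hsp68b made up 7.47%, 8.03% and 33.8% in the dsEGFP replicates. They made up 59.3%, 33.6% and 84.5% in the dsTcAMPKα replicates. The share in dsEGFP replicate 3 was thus near that in dsTcAMPKα replicate 2, and the other control libraries were far below both.

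**Figure D2:**
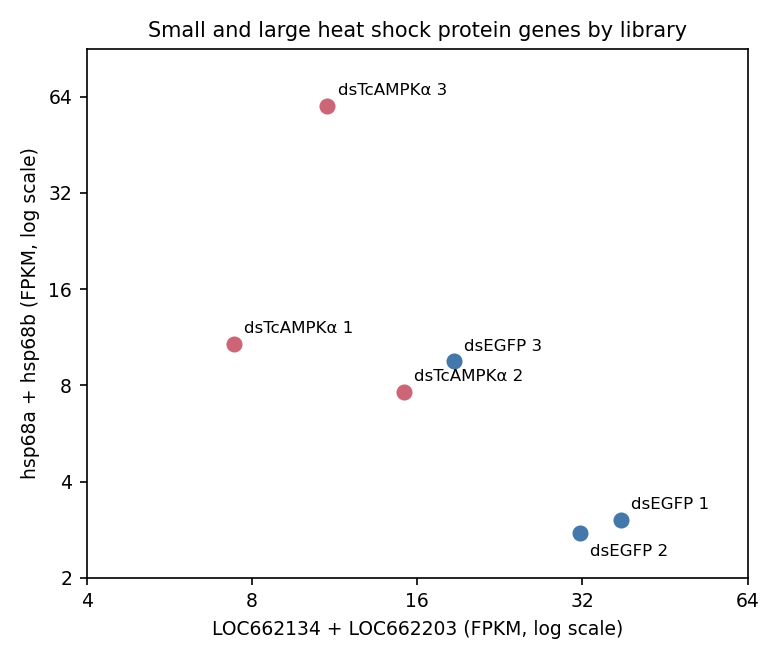
Summed FPKM of hsp68a and hsp68b (vertical axis, log scale) against summed FPKM of LOC662134 and LOC662203 (horizontal axis, log scale), with 1 point for each library. The dsEGFP replicates 1 and 2 lie at the lower right, dsTcAMPKα replicate 3 at the top with 60.001 FPKM for the hsp68 genes, and dsEGFP replicate 3 lies close to dsTcAMPKα replicate 2.

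Within the classes the members differed in how closely they followed each other. The hsp68b level was 1.40, 1.74 and 1.85 times that of hsp68a in the dsEGFP replicates and 1.21, 1.26 and 1.45 times in the dsTcAMPKα replicates. This ratio stayed in a narrow band although the levels themselves moved widely. The LOC662203 level was 4.36, 5.66 and 2.23 times that of LOC662134 in dsEGFP and 2.36, 7.04 and 5.45 times in dsTcAMPKα, a wider band that overlapped between the groups. Over the 6 libraries Pearson's r of log2(FPKM + 1) was 0.991 between hsp68a and hsp68b and 0.732 between LOC662134 and LOC662203. Between a small and a large member it was -0.72 to -0.64. These coefficients describe 6 libraries that include both groups, so they contain the difference between the groups. How reads that match both hsp68 genes were divided between them is not given in the sources used here, and their likeness in sequence was not analysed here.

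The small pair lies on sequence NC_007423.3 of the Tcas5.2 build. The annotated transcript of LOC662134 runs from 11740126 to 11740704 on the minus strand (1 exon, 579 nt), and that of LOC662203 from 11741792 to 11742288 on the plus strand (1 exon, 497 nt). They are not direct neighbours, because LOC662168 (11741082 to 11741667, minus strand) lies between them, 75 nt from the assembled end of LOC662134 and 124 nt from LOC662203. An assembled form of LOC662134 with 2 exons (825 nt) reaches 11741006. It was at 1.44 FPKM in dsEGFP replicate 2, at 0.0367 FPKM in dsEGFP replicate 3, and listed at 0 elsewhere, which leaves the annotated transcript as nearly all of the signal in the other libraries. With annotated transcripts only, LOC662134 was at 7.01, 3.32 and 5.73 FPKM in dsEGFP, the log2 fold change was -1.07 and the adjusted p from limma 0.0533, so that the gene was not called.

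The genes around the small pair did not all share its direction. LOC662168, which lies between its members, was at 27.3, 27.3 and 24.1 FPKM in the dsEGFP replicates and at 10.5, 10.1 and 33.0 FPKM in the dsTcAMPKα replicates. It was lower in dsTcAMPKα replicates 1 and 2 but at its highest in replicate 3, and it was not called (log2 fold change -0.74, adjusted p = 0.261 from limma). On the other side of LOC662134, 62 nt away, LOC659835 was at 24.0, 22.9 and 17.1 FPKM in dsEGFP and at 39.5, 36.6 and 36.7 FPKM in dsTcAMPKα. Its groups were apart in the opposite direction, and its log2 fold change of 0.80 passed on the adjusted p (0.0307 from limma) but not on size. LOC662237, next to LOC662203, had 58.9 to 130 FPKM in dsEGFP and 26.1 to 143 FPKM in dsTcAMPKα, with a log2 fold change of -0.19 (adjusted p = 0.860 from limma). Farther out, LOC662275 was at 503, 511 and 426 FPKM in dsEGFP and at 218, 253 and 181 FPKM in dsTcAMPKα, lower without overlap. On the side of LOC659835, elg1 was at 7.23, 6.68 and 2.94 FPKM in dsEGFP and at 10.7, 10.6 and 10.1 FPKM in dsTcAMPKα, higher without overlap. Over all tested genes 13.6% were lower and 31.2% higher without overlap.

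The large pair lies on sequence NC_007422.5 of the same build. The hsp68b transcript runs from 4696800 to 4698990 on the minus strand (2191 nt) and the hsp68a transcript from 4700866 to 4702936 on the plus strand (2071 nt). Each has 1 exon, and their starts face each other across 1875 nt. Both lie within the span of LOC657584 (4693002 to 4705997, minus strand, 16 exons), which RefSeq names GluProRS, an enzyme that loads glutamate and proline on their tRNAs. GluProRS was at 12.8, 10.5 and 13.5 FPKM in dsEGFP and at 17.7, 18.5 and 19.6 FPKM in dsTcAMPKα (log2 fold change 0.57, adjusted p = 0.0513 from limma). It showed no peak in dsTcAMPKα replicate 3 of the kind that both hsp68 genes had. The use of strand in the authors' assembly is not given in the sources used here, so reads of hsp68a could not be told apart by strand from reads of the overlapping gene.

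**Figure D3:**
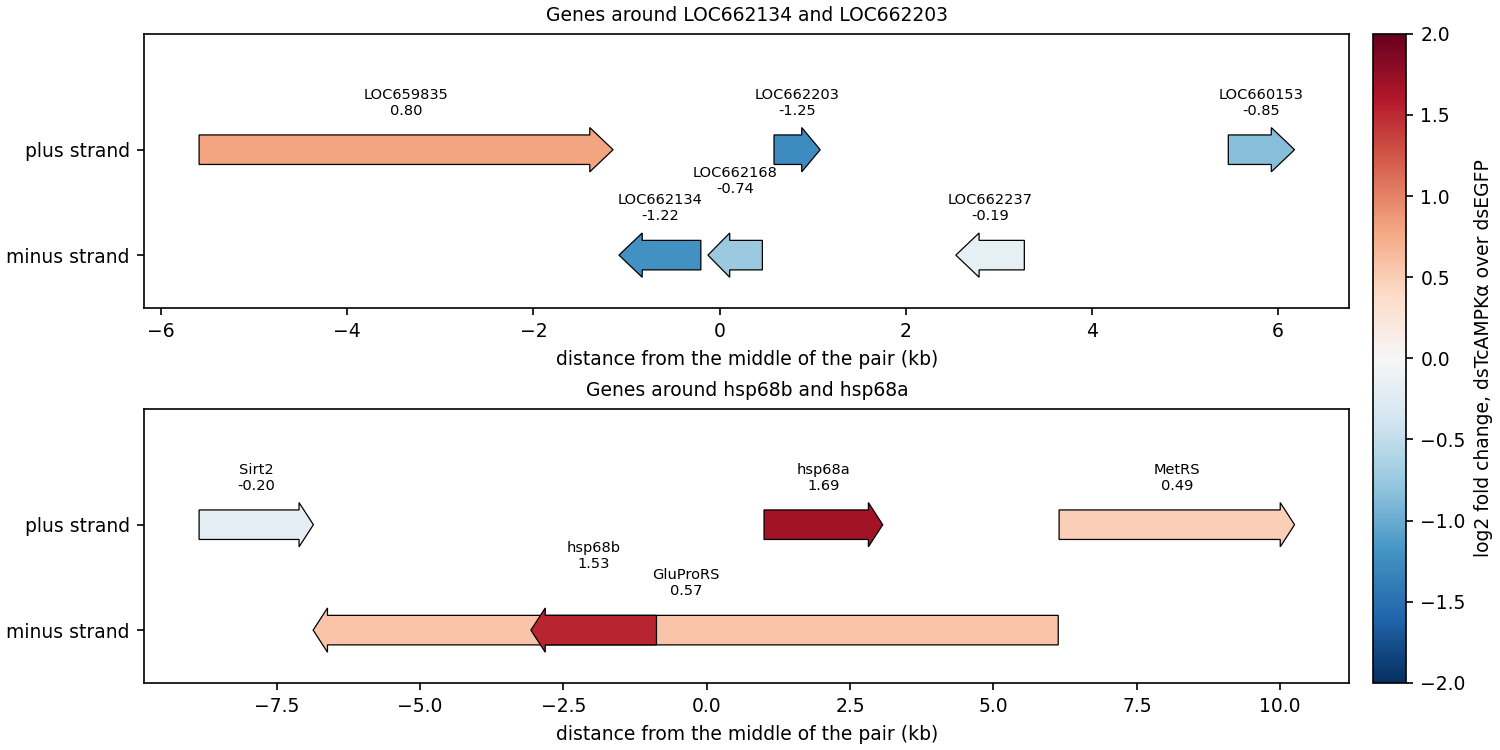
Position (horizontal axis, kb from the middle of the pair) and strand (vertical axis) of genes around the small pair (top) and the large pair (bottom), coloured by the log2 fold change printed above each arrow. Not every gene of these stretches is drawn, and elg1 and LOC662275 are left out. LOC662134 (-1.22) and LOC662203 (-1.25) flank LOC662168 (-0.74), and hsp68b (1.53) and hsp68a (1.69) point away from each other within GluProRS (0.57).

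Transcript length moved with the fold change across the whole data set. Across the tested genes, which are not independent replicates, Spearman's rho between the log2 fold change and the length of the most abundant transcript was 0.636. The 4 members followed this order, both short genes being lower and both long ones higher. Among 1150 tested genes of 400 to 700 nt, the range of LOC662134 and LOC662203, the median log2 fold change was -0.54, 82.2% were below 0 and 12.2% were called lower. Among 1335 tested genes of 1900 to 2400 nt, the range of the hsp68 genes, the median was 0.40 and 87.0% were above 0, and 2.097% were called higher. After a smooth trend on length was removed from each library, rho was 0.0284 and the log2 fold changes were -0.76 for LOC662134, -0.73 for LOC662203, 1.31 for hsp68a and 1.12 for hsp68b. No member was then called (adjusted p = 0.106, 0.423, 0.378 and 0.497 from limma), with 1.1% of all tested genes called, 0.419% higher and 0.683% lower. Before adjustment, limma's p for LOC662134 after the correction was 0.00402, and it was above 0.1 for the other members. With median-ratio size factors LOC662134 was again the single member called, at a log2 fold change of -1.38 (adjusted p = 0.0162 from limma), with 5.44% of all tested genes called, 1.53% higher and 3.91% lower. Whether the length trend belongs to the larvae or to the libraries was not tested.

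**Figure D4:**
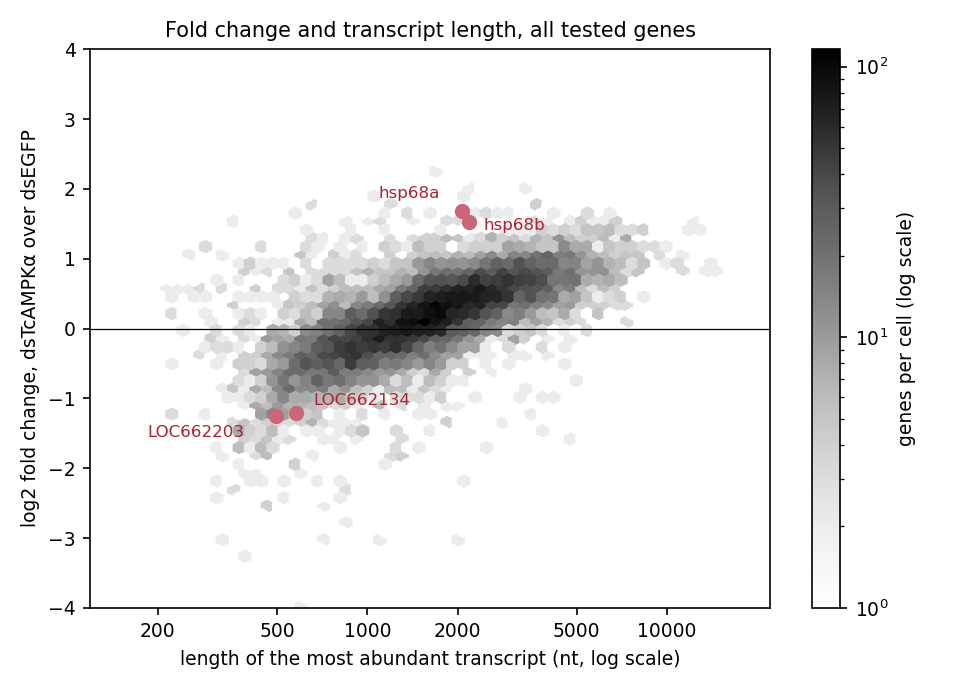
Log2 fold change (vertical axis) against the length of the most abundant transcript (horizontal axis, nt, log scale) for the tested genes, with darker cells holding more genes (52 genes lie outside the limits of the plot). The small heat shock protein genes lie below most genes of their length (-1.22 and -1.25), with others lower still, and hsp68a (1.69) and hsp68b (1.53) lie above most genes of their length.

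The remaining chaperone machinery was followed through 30 genes that RefSeq names as chaperones, co-chaperones or heat shock factor, a list drawn up by name. All 30 were tested, and 0 were called higher and 1 lower, against 4.09% and 2.71% of all tested genes. At an unadjusted limma p under 0.05, 9 were higher and 2 lower, where 25.7% of all tested genes were higher and 10.8% lower, so these counts were near the background. On estimated reads limma-voom also called 0 higher and 1 lower, against 167 higher and 455 lower of all 10981 tested genes. The log2 fold change was above 0 in 26 and below 0 in 4 (above 0 in 63.9% of all tested genes), with a median of 0.31 against 0.20 over all tested genes. After the length correction it was above 0 in 16, with a median of 0.04 against -0.00 over all genes. With median-ratio size factors it was above 0 in 20, with a median of 0.09 against 0.00 over all genes. With both replicates 3 left out, 29 were tested, with 1 called higher and 1 lower, against 6.91% and 5.25% of all tested genes. The one called higher was Grp170 (log2 fold change 1.26, adjusted p = 0.0166 from limma).

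Hsf, the transcription factor of the heat shock response, was at 30.3, 21.5 and 9.78 FPKM in the dsEGFP replicates and at 40.9, 43.9 and 44.8 FPKM in the dsTcAMPKα replicates. Every dsTcAMPKα library was above every dsEGFP library, and the low level of dsEGFP replicate 3 widened the control group. Its log2 fold change of 1.17 ± 0.38 (SE) did not pass (adjusted p = 0.0763 from limma), and it was 0.64 after the length correction. Hsf did not stand out in dsTcAMPKα replicate 3, where hsp68a and hsp68b were at their highest, and in dsEGFP replicate 3 it was at its lowest while both hsp68 genes were at their highest for that group. These are transcript levels, which do not measure the activity of the Hsf protein. Its part in the hsp68 levels was not tested.

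The other members of the HSP70 family in this list did not share the pattern of hsp68a and hsp68b. Hsc70-3, the chaperone of the endoplasmic reticulum known as BiP, was at 216, 183 and 231 FPKM in dsEGFP and at 275, 285 and 139 FPKM in dsTcAMPKα (log2 fold change 0.08, adjusted p = 0.864 from limma). It was at its lowest in dsTcAMPKα replicate 3, the library in which the hsp68 genes were highest. Hsc70-5, the mitochondrial member, was at 83.5, 81.1 and 86.1 FPKM in dsEGFP and at 117, 123 and 133 FPKM in dsTcAMPKα, groups that were well apart. Its log2 fold change of 0.57 passed on the adjusted p (0.0342 from limma) but not on size, and was 0.10 after the length correction. Hsc70-2 had a log2 fold change of 0.50 (adjusted p = 0.226 from limma), and its groups overlapped.

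All 4 genes of the HSP90 and HSP110 families were higher in every dsTcAMPKα library than in any dsEGFP library. With all 6 libraries 0 were called by limma or limma-voom (all 4 had an unadjusted limma p under 0.05). Over all tested genes 31.2% were higher without overlap and 25.7% were higher at an unadjusted p under 0.05. Hsp110, a nucleotide exchange factor of HSP70, was at 37.0, 32.7 and 34.1 FPKM in dsEGFP and at 60.3, 64.5 and 74.6 FPKM in dsTcAMPKα. The change of 0.92 ± 0.14 (SE) on the log2 scale stayed just under the size required, at an adjusted p of 0.0226 from limma. Grp170, its relative in the endoplasmic reticulum, had a log2 fold change of 0.97 (adjusted p = 0.0523 from limma), Gp93, the HSP90 of that compartment, 0.67, and Hsp83, the cytosolic HSP90, 0.62. The median of this class was 0.80 before and 0.25 after the length correction.

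The only other small heat shock protein that RefSeq names in this list, l(2)efl, was at 128, 138 and 204 FPKM in dsEGFP and at 243, 217 and 197 FPKM in dsTcAMPKα. It was thus far more abundant per length than LOC662134 or LOC662203, and higher in dsTcAMPKα except for replicate 3, which lay below the highest control. Its log2 fold change was 0.51 (adjusted p = 0.140 from limma), and with its transcript of 752 nt it was 0.81 after the length correction (adjusted p = 0.0749 from limma). LOC662134 (579 nt) and LOC662203 (497 nt), both shorter, had values of opposite sign in both settings.

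Among the co-chaperones, Sgt1 (LOC660373), a partner of HSP90, was called lower. It was at 41.0, 46.0 and 59.9 FPKM in dsEGFP and at 10.6, 7.52 and 6.56 FPKM in dsTcAMPKα (log2 fold change -2.44, adjusted p = 0.0164 from limma). At the same locus an assembled transcript of 1941 nt, counted for the next gene LOC660432, was taken to run through Sgt1. It was at 10.4, 9.25 and 4.65 FPKM in dsEGFP and at 24.98, 27.1 and 23.3 FPKM in dsTcAMPKα, the opposite direction. Together both came to 51.4, 55.2 and 64.5 FPKM against 35.6, 34.6 and 29.9 FPKM, still lower in every dsTcAMPKα library. How reads were divided between these transcripts, which differ in length, was not examined. The HSP90 co-chaperone p23 was at 139, 149 and 165 FPKM in dsEGFP and at 94.0, 104 and 86.5 FPKM in dsTcAMPKα (log2 fold change -0.66, adjusted p = 0.0327 from limma, not past the size required). P58IPK, a J-domain protein of the endoplasmic reticulum, had a log2 fold change of 0.53 (adjusted p = 0.0459 from limma).

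The 8 subunits of the CCT chaperonin, which folds actin and tubulin, had log2 fold changes of 0.17 to 0.39, and 0 were called by limma or limma-voom (1 had an unadjusted limma p under 0.05), against 6.8% called and 25.7% higher before adjustment over all tested genes. Their median was 0.27 and became -0.01 after the length correction. Hsc20, a co-chaperone of iron-sulphur cluster assembly, was at 15.7 FPKM in dsEGFP replicate 3 and at most 0.0340 FPKM in any other library, a value set by 1 library.

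**Figure D5:**
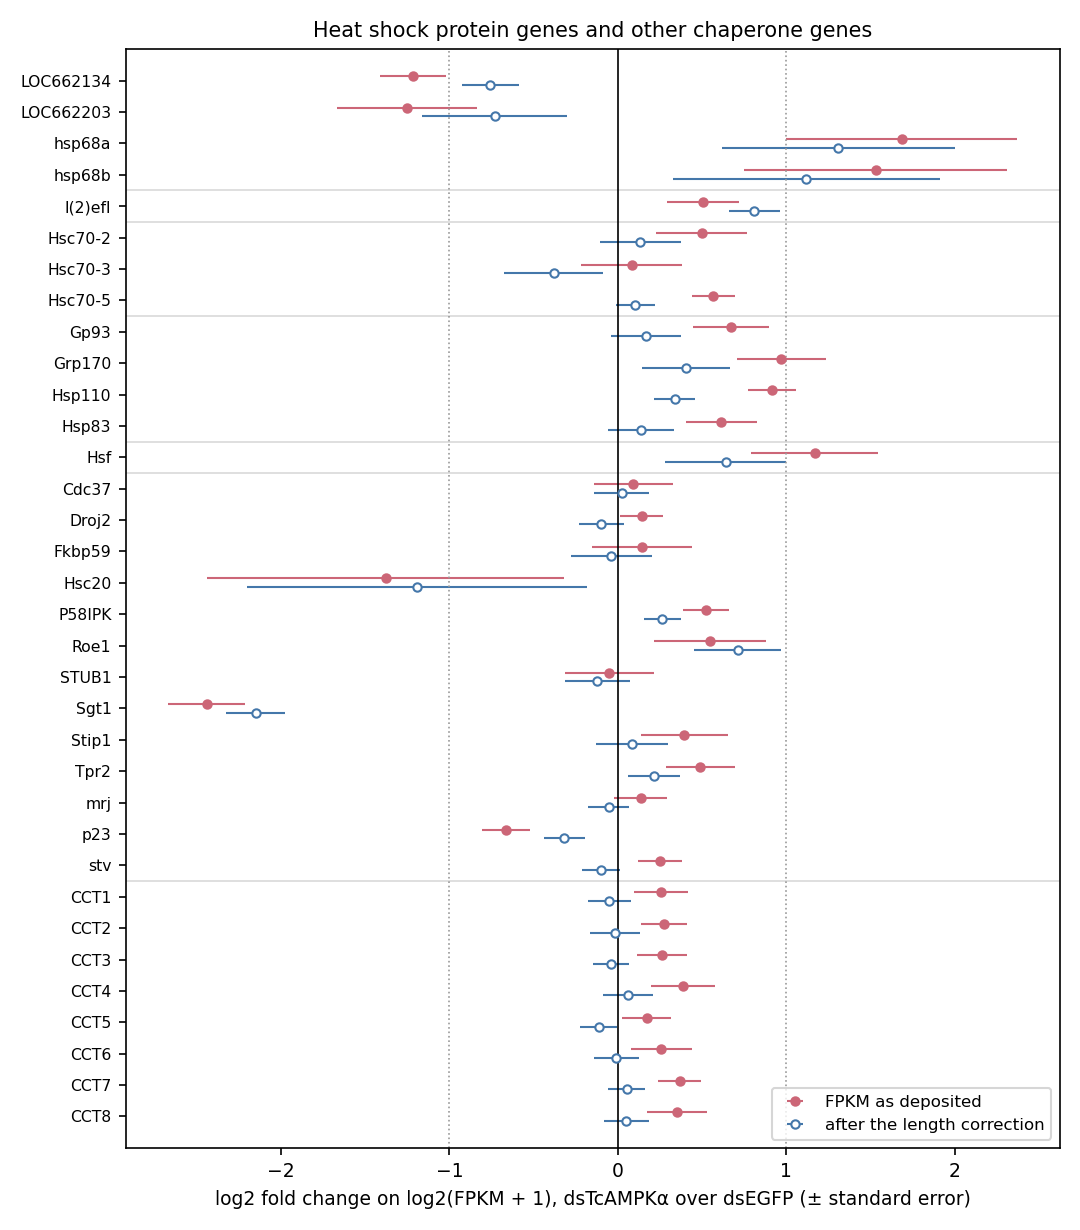
Log2 fold change on log2(FPKM + 1) with its standard error (horizontal axis) for the 4 heat shock protein genes and 30 chaperone genes named in RefSeq (vertical axis), from the deposited FPKM (filled) and after the length correction (open). The dotted lines mark the size required for a call, and the long genes of the HSP90 and HSP110 families and the CCT subunits move towards 0 with the correction, whereas l(2)efl moves from 0.51 to 0.81.

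Per unit of length, LOC662134, hsp68a and hsp68b were below all chaperones of the HSP families named here, and LOC662203 lay among the less abundant of them. In the dsEGFP group the median levels ran from 216 FPKM for Hsc70-3, 180 for Hsp83, 138 for l(2)efl, 88.0 for Gp93 and 83.5 for Hsc70-5 down to 34.1 for Hsp110, 26.9 for LOC662203, 24.5 for Grp170, 21.5 for Hsf and 19.8 for Hsc70-2. LOC662134 (5.76 FPKM), hsp68b (1.77 FPKM) and hsp68a (1.26 FPKM) followed at a distance. Hsc70-3, Hsp83 and l(2)efl overlapped in their ranges over the dsEGFP libraries, as did Gp93 and Hsc70-5, Hsp110 and Grp170, the set of LOC662203, Grp170, Hsf and Hsc70-2, and hsp68b and hsp68a, whereas LOC662134 (4.76 to 7.01 FPKM) overlapped only with hsp68b (1.76 to 6.19 FPKM).

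Gene ontology lists taken from the study's annotation, were followed as far as the copy used here holds them. The annotation states 66 genes under protein folding, of which 39 were found in this shortened copy. Of these 39 genes, 36 were tested and 0 were called by limma or limma-voom in either direction. Over all tested genes limma called 6.8%. At an unadjusted limma p under 0.05, 4 were higher and 4 lower, against 25.7% and 10.8% of all tested genes. With both replicates 3 left out, 35 were tested, with 1 called higher and 1 lower, against 6.91% and 5.25% of all tested genes. With all 6 libraries the median log2 fold change of the tested protein folding genes was 0.15. The most abundant of them, the lectin chaperone calreticulin (Calr), was at 372, 295 and 601 FPKM in dsEGFP and at 630, 574 and 536 FPKM in dsTcAMPKα, groups that overlapped. The protein disulphide isomerases Pdi and ERp60 had log2 fold changes of 0.35 and 0.22 (adjusted p = 0.196 and 0.420 from limma). Of 14 genes listed under response to heat or stress, 13 were tested, with 0 called higher (5 at an unadjusted limma p under 0.05, 0 by limma-voom) and 1 lower, and 12 had a log2 fold change above 0. Over all tested genes 4.09% were called higher and 2.71% lower, 25.7% were higher at an unadjusted p under 0.05, and 63.9% were above 0. The called gene, LOC656542, was at 5.31, 3.30 and 7.40 FPKM in dsEGFP and at 0.146, 0.451 and 0.333 FPKM in dsTcAMPKα (log2 fold change -2.23, adjusted p = 0.0191 from limma). Its groups were well apart, and no symbol is given for it in RefSeq. Hsp83, Gp93 and Droj2, the most abundant tested genes of this list, were not called.

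The genes whose levels over the 6 libraries were most like those of a member were chosen by Pearson's r of log2(FPKM + 1) over all tested genes. For LOC662134 they were LOC103313673 (0.993), LOC103312789 (0.991) and LOC103313978 (0.991). For LOC662203 they were LOC660853 (0.998), LOC107398825 (0.987) and LOC655331 (0.986), and LOC662134 was only at rank 986 of 10980. The likeness of the small pair to each other was thus exceeded by many genes. For hsp68a they were LOC663293 (0.992), hsp68b (0.991) and LOC100141517 (0.980). For hsp68b, hsp68a was first, followed by Ldh (0.989), which encodes lactate dehydrogenase, the enzyme that converts pyruvate to lactate. Ldh was at 27.5, 28.4 and 47.8 FPKM in dsEGFP and at 46.7, 33.5 and 103.9 FPKM in dsTcAMPKα, and so was highest in the same library as both hsp68 genes in each group. LOC663293 was at 4.81, 3.86 and 6.17 FPKM in dsEGFP and at 7.98, 6.78 and 23.8 FPKM in dsTcAMPKα, with the same library at the top of each group.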

How the data were processed

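RNA-Seq of 6 pooled larval libraries was analysed. Per the study's methods, the authors mapped reads onto the Tcas5.2 build with HISAT2. Per the labels, transcripts were built with StringTie. The labels also name the mappers Bowtie2 and TopHat2 beside HISAT2. Deposited were FPKM for 31944 transcripts (25178 annotated, 6766 assembled) and the coverage of each, a signal of reads per base. The study's own test needs counts, which these values do not hold, so limma was planned and used with the study's thresholds.

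FPKM were added up by gene. Genes with a mean of at least 1 FPKM were tested on log2(FPKM + 1), which understates changes of low genes, with limma 3.58.1 in R 4.3.3 (lmFit, eBayes with trend). Reads were estimated as coverage × length / 150. The length correction removed a lowess trend (span 0.4) from each library. Fits were tested on simulated data. Python 3.11.15, pandas 2.3.3 and matplotlib 3.10.9 were used for the rest. Replicates, numbered in accession order, are pools of different larvae. Precision is given by the spread between 3 libraries. The estimated reads were derived from coverage and are not counts, and no counting error is given for them.

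The members and lists were chosen with earlier results of these data known. Named were all members, *Snf1a*, adjacent genes, called and most abundant genes of each list, and the 3 genes most like LOC662134, LOC662203 and hsp68a. The GluProRS, Ldh, Hsf, LOC662275, elg1 and other chaperone genes were named after their values were seen. RefSeq symbols (icTriCast1.1) were used for names only. Alternatives changed the pseudocount, filter, scaling, length correction, test, summary by gene, thresholds and libraries. Protein and promoter sequences were not analysed here.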

Additional observations from a re-analysis of the deposited data

How the results depend on the processing

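No member changed direction under any alternative run. The number of members called was 1 in the reported fit and 0 with a mean of at least 5 FPKM (which left LOC662134 untested), with the length correction, with the most abundant transcript or with annotated transcripts only, and 0 to 2 with each library left out in turn. It was 4 with both replicates 3 left out. The log2 fold change of LOC662134 was -0.76 with the length correction (adjusted p = 0.106 from limma) and -1.07 with the most abundant transcript (0.0628) and with annotated transcripts only (0.0533). Left-out libraries gave -1.33 to -1.09 for LOC662134, -1.62 to -0.93 for LOC662203, 0.91 to 2.18 for hsp68a and 0.66 to 2.06 for hsp68b. LOC662134 was not called without dsEGFP replicate 2 or without any single dsTcAMPKα replicate. Few or no genes of the whole set were called in these fits. Over all tested genes, 17 were called higher and 37 lower without dsEGFP replicate 2, and 4 and 30 without dsTcAMPKα replicate 3. Without dsTcAMPKα replicate 1 or 2, 0 were called in either direction. With both replicates 3 left out, LOC662203 (-1.66), hsp68a (1.25) and hsp68b (1.12) passed. The log2 ratio of summed FPKM of the large class was 0.85 to 3.17 with libraries left out, lowest without dsTcAMPKα replicate 3. Over all genes, 449 were called higher and 298 lower. The number higher was 168 with median-ratio size factors, 234 with quantile normalization, 1418 with TPM, 283 with the most abundant transcript and 292 with annotated transcripts only. The length correction gave 46 higher and 75 lower, limma-voom 167 and 455, adjusted p alone 1226 and 581, and leaving out both replicates 3 755 and 573. Left-out libraries gave 0 to 686 higher and 0 to 513 lower. The median log2 fold change of all genes was 0.20 as deposited, 0.00 with median-ratio size factors and 0.43 with TPM. No paired analysis was possible because the labels give the libraries no replicate numbers, and no source used here says that equally numbered libraries share a batch or day. Depth limits LOC662134 most, with 34 to 49 estimated reads per dsTcAMPKα library.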

Other observations

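LOC660153, a single-exon gene of 713 nt that lies beyond LOC662237 on the same stretch as the small heat shock protein genes, was looked at after its values had been seen. It was at 231, 151 and 66.9 FPKM in the dsEGFP replicates and at 30.9, 92.2 and 136 FPKM in the dsTcAMPKα replicates. Its levels spanned a wide range within both groups, which overlapped (log2 fold change -0.85, adjusted p = 0.375 from limma). In dsTcAMPKα replicate 1 LOC660153, LOC662237 and LOC662203 were each at their lowest of all 6 libraries, whereas LOC662134 was at its lowest in dsTcAMPKα replicate 3.

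LOC103313673 and LOC103312789, which followed LOC662134 most closely, were nearly absent from the dsTcAMPKα libraries. LOC103313673 was at 74.5, 14.5 and 46.5 FPKM in dsEGFP and at 0.351, 0.160 and 0.215 FPKM in dsTcAMPKα. LOC103312789 was at 6.09, 3.67 and 3.84 FPKM in dsEGFP and at 0.218, 0.0348 and 0.122 FPKM in dsTcAMPKα. RefSeq gives no symbol for either gene.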
